A study of Homo sapiens with 6 samples.

Results

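The subject here is a group of 174 loci whose RNA was at least 2-fold lower in migrated than in non-migrated SiHa cells of a transwell assay. SiHa is an established human cell line from a squamous cell carcinoma of the cervix. The study divided it by migration through transwell inserts in plates of 6 wells. The migrated and the non-migrated cells were scraped off 10 h after seeding, pooled by fraction and sequenced in 3 replicate sets. Each set gave 1 library of each fraction, so the 6 libraries are 3 migrated and 3 non-migrated. No cell was treated or genetically altered, and both fractions come from the same line. Whether each set was a culture of its own is not stated in the labels. Which libraries form a set was read from their numbering, which is an assumption. The title of the series concerns chromatin with little SUV39H1 in migrating cells, but the table identifies its loci by assembly IDs without gene names. SUV39H1, marker genes of the cervical epithelium and gene lists could therefore not be looked up.

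A locus was taken when it met 3 conditions on its CPM, the fragments of a locus scaled to the total of its library. Its mean over the 6 libraries was at least 0.5 CPM, its migrated mean was lower than its non-migrated mean by a factor of at least 2, and every migrated value lay below every non-migrated value. Of 26006 loci, 13321 reached this level, and 174 of those met the other conditions, which is 1.31%. The same conditions with the fractions exchanged were met by 26 loci, or 0.195%. The fall itself is what the rule selected, so folds between the fractions are given below as a description and were not tested.

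In a transwell assay, cells move from the upper side of a porous membrane through its pores to the lower side, and the cells on each side can be collected separately. Cells that cross have to reorganise their cytoskeleton, loosen contacts to their neighbours and attach again on the other side. SUV39H1 places trimethylation on lysine 9 of histone H3, a mark of compacted and transcriptionally silent chromatin. In bulk RNA, fewer cells that express a locus and less RNA per cell cannot be told apart.

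The libraries held 18226280 to 33466924 assigned fragments. At that depth 1 fragment is worth 0.0549 CPM in the shallowest library and 0.0299 CPM in the deepest. The median log2 ratio of migrated to non-migrated CPM over all 13321 loci was -0.04, and it was 0.01 with TMM scaling, a trimmed mean of ratios between libraries. Same-numbered libraries of both fractions deviated together from their fraction means, so sets are compared within themselves where that matters.

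Most of the 174 loci were weakly expressed. Their mean level ran from 0.508 to 108 CPM with a median of 1.34 CPM, whereas the median over all 13321 loci was 30.6 CPM. In all, 67 were under 1 CPM, 112 under 2 CPM and 147 under 5 CPM, and only 12 reached 10 CPM. Per locus length, the median level was 0.395 FPKM (fragments scaled to locus length and library size) against 8.32 FPKM over all loci. A non-migrated library held a median of 44 fragments per locus and a migrated library a median of 17. The share of loci that met the rule was steeply graded by level. It was 9.52% of the 704 loci between 0.5 and 1 CPM, 5.73% of the 786 between 1 and 2 CPM, and 3.06% of the 1142 between 2 and 5 CPM. Between 5 and 10 CPM it was 1.39% of 1082 loci, and at 10 CPM or more it was 0.125% of 9607.

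Separated fractions were about equally frequent at every level. Every migrated value lay below every non-migrated value at 22.7% of all 13321 loci, and the share per level class ran only from 21.8% to 25.9%. The reverse order was found at 12.2%. Both shares are by library totals and are not given with TMM scaling. By library totals, 56.4% to 58.9% of all loci were lower in a single set, against 46.7% to 48.1% with TMM scaling. The difference between the shares is therefore not read as more loci falling than rising. Strongly expressed loci with separated fractions were common, but their ratios were mostly smaller than 2-fold. The median log2 ratio of all loci was -0.23 both between 0.5 and 1 CPM and between 1 and 2 CPM, and -0.02 at 10 CPM or more. The mirror rule was graded the same way, from 1.14% of loci between 0.5 and 1 CPM to 0.0520% at 10 CPM or more.

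**Figure D1:**
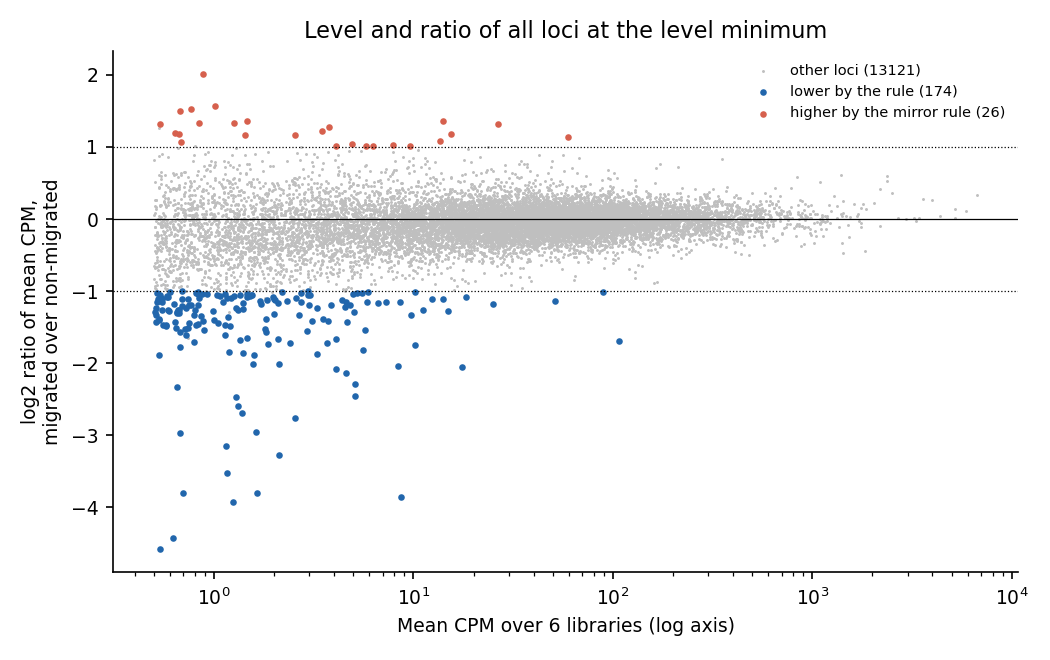
Each point is 1 of the 13321 loci at the level minimum, by its mean CPM over 6 libraries (log axis) and its log2 ratio of mean migrated to mean non-migrated CPM, with dotted lines at 2-fold. The 174 lower loci lie mostly under 5 CPM and reach further from 0 than the 26 higher ones.

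The highest of the 174 was XLOC_013485, which made up 131, 171 and 191 CPM in the non-migrated libraries of sets 1, 2 and 3. In the migrated libraries of the same sets it was at 30.0, 47.4 and 74.6 CPM. The lowest non-migrated value was 1.76 times the highest migrated one, beside a median of 1.63 over the 174. Both fractions rise in the same order of sets. Its means were 164 ± 30.3 CPM (SD, n = 3) and 50.7 ± 22.5 CPM (SD, n = 3), a 3.24-fold difference that was 4.37-fold in set 1, 3.62-fold in set 2 and 2.55-fold in set 3. The values rest on 771 to 4394 fragments per library, so counting error is small beside the spread between sets. Its relative length was 2.16 times the median locus. Per length it stood at 21.7 FPKM in non-migrated and 7.09 FPKM in migrated cells.

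XLOC_005671 had the widest gap between the fractions among loci with a fragment in every library. Its non-migrated values were 2.75, 3.27 and 3.18 CPM, and its migrated values were 0.273, 0.129 and 0.257 CPM. The lowest non-migrated value was 10.1 times the highest migrated one. The means were 3.07 ± 0.279 CPM (SD, n = 3) and 0.220 ± 0.0785 CPM (SD, n = 3), which is 14.0-fold. The migrated libraries held only 7, 3 and 6 fragments of it, against 58 to 92 in the non-migrated libraries, so the size of its fold is imprecise. Its relative length was 2.93 times the median locus.

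The other loci with the highest levels in the group are described by their rank in level, since the IDs are not paired with gene names. From the fourth rank on, mean levels were below the median of 30.6 CPM over all loci. The second by level was at 108, 132 and 117 CPM in non-migrated and at 54.4, 59.2 and 63.6 CPM in migrated libraries of sets 1 to 3. It is close to the limit of the rule at 2.02-fold, a log2 ratio of -1.01. It would not meet the rule by TMM scaling (-0.96), DESeq2 size factors (-0.96) or FPKM (-0.91), nor without the second non-migrated library (-0.93) or the first migrated one (-0.96). The third was at 59.6, 81.7 and 68.9 CPM against 27.5, 30.6 and 37.5 CPM, or 2.20-fold. In the second the lowest non-migrated value was 1.70 times the highest migrated one, and in the third 1.59 times, beside a median of 1.63 over the 174. The libraries of a fraction varied by 10.1% and 7.79% (coefficient of variation, non-migrated and migrated) in the second and by 15.8% and 16.1% in the third. The 3 highest loci together made up 35.3% of the summed mean level of all 174.

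The sixth by level was even among the non-migrated libraries, with a coefficient of variation of 2.39%, and varied by 13.7% among the migrated ones. It stood at 27.6, 29.0 and 28.3 CPM in non-migrated and at 7.05, 5.83 and 7.67 CPM in migrated libraries, a 4.13-fold difference. It is a short locus, at 0.195 times the median length. Per length it was therefore the highest of the 174 in non-migrated cells, at 41.0 FPKM, and it was at 10.6 FPKM in migrated cells. The fourth by level, which varied by 7.72% and 13.2%, was at 37.4, 32.0 and 34.7 CPM against 15.5, 13.3 and 17.3 CPM.

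In other loci high in this ranking the level moved with the set. The fifth by level was at 32.9, 23.0 and 19.0 CPM in non-migrated libraries of sets 1, 2 and 3 and at 17.7, 8.07 and 9.55 CPM in migrated ones. Set 1 was the highest in both fractions, so its migrated value nearly reached the lowest non-migrated value. The eighth was at 13.8, 26.0 and 17.6 CPM against 6.08, 13.2 and 7.41 CPM, with set 2 the highest in both fractions. The fourteenth was at 13.3, 25.2 and 9.99 CPM against 1.40, 1.42 and 0.514 CPM. Its non-migrated level varied by more than a factor of 2 between sets, yet the fractions differed 14.5-fold.

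**Figure D2:**
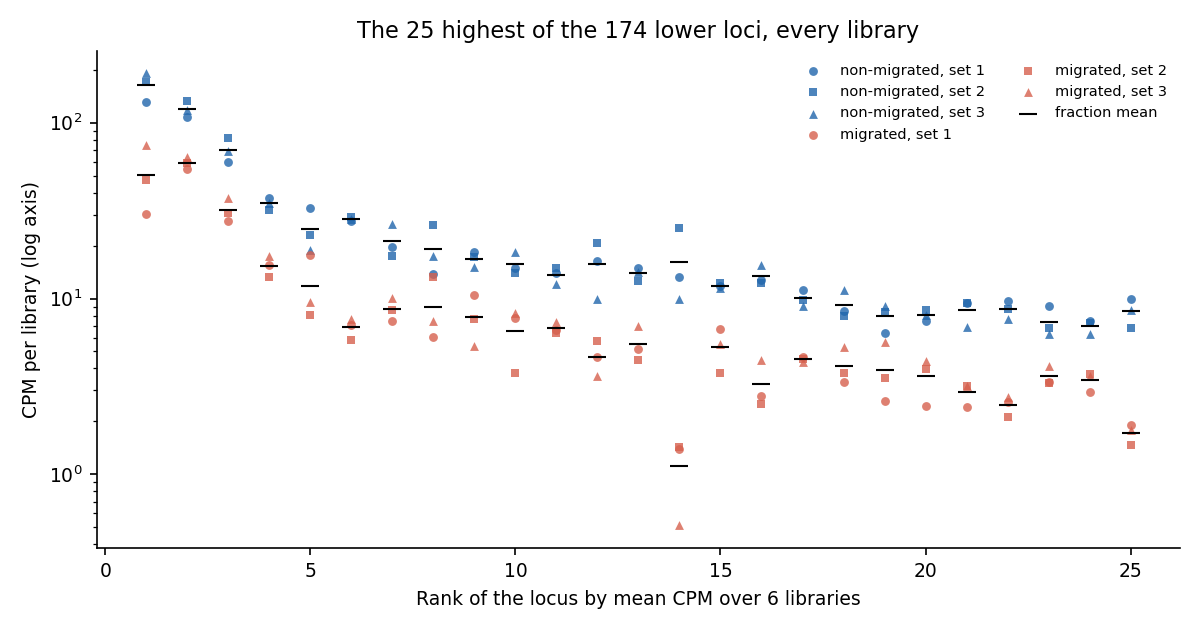
CPM of the 25 highest of the 174 loci in each of the 6 libraries (log axis), ordered by mean level, with colour for the fraction, marker shape for the replicate set and a bar for the mean of each fraction. Every migrated point lies below every non-migrated point, as the rule requires, by a margin that is widest at rank 14 and nearly closed at ranks 5 and 8.

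Folds were mostly just over the limit. The median was 2.42-fold and the upper quartile 2.96-fold, with 43 loci over 3-fold, 24 over 4-fold and 17 over 5-fold. At the fold limit, the nearest loci inside were at 2.001-fold and 2.006-fold and the nearest outside at 1.996-fold and 1.993-fold. At the level limit, the nearest inside had a mean of 0.508 CPM and the nearest outside a mean of 0.496 CPM. A further 370 loci met the fold and the separation below 0.5 CPM, and 6 loci above it met the fold with overlapping fractions. With those 6 the share is 1.35%. Among the 26 higher loci the median was 2.28-fold and the largest 4.01-fold, while the 171 lower loci with at least 10 migrated fragments in all reached 15.2-fold.

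The 3 loci with 0 fragments in a migrated library were all under 1 CPM. The first was at 1.25, 0.635 and 1.37 CPM in non-migrated and at 0.390, 0 and 0.257 CPM in migrated libraries of sets 1 to 3. The second was at 1.31, 1.12 and 1.15 CPM against 0.0390, 0 and 0.128 CPM. The third was at 0.837, 1.42 and 0.823 CPM against 0, 0.0863 and 0.0428 CPM. The last 2 of them have 4 and 3 migrated fragments in all, so no fold is given, and a count of 0 would still allow 3 fragments in that library.

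Summed over all 174 loci, the non-migrated libraries held 943, 1075 and 1024 CPM and the migrated libraries 365, 365 and 437 CPM in sets 1, 2 and 3. Without the 3 highest loci the sums were 644, 690 and 647 CPM against 253, 227 and 261 CPM. Their fragment counts were whole numbers within 0.05 in every library, and none of the 174 loci was among the 14 loci that the deposited table marks as failed.

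The fold limit of the rule uses group means, and a single set could carry them. A fall in every set was fixed by the separation that the rule requires, so only its size is described. At least a 2-fold difference was seen in 120 of the 174 loci in set 1, in 152 in set 2 and in 129 in set 3, and in 76 in every set. Of all loci at the level minimum in the other sets, 1.57%, 2.29% and 1.99% were at least 2-fold lower in sets 1, 2 and 3. The median fold was 2.36 in set 1, 2.87 in set 2 and 2.56 in set 3. The smallest fold of any locus was 1.10, 1.26 and 1.20 in these sets. Set 2 thus showed the largest and set 1 the smallest differences. By edgeR's quasi-likelihood test on the whole table, 140 of the 174 loci were lower at an adjusted p under 0.05, beside 6.39% of all 13551 loci tested (and 6.46% higher). With the replicate set as a block, 173 of the 174 were lower, beside 19.9% of all (and 20.8% higher). The rule and this test use the same counts, so nothing is read from these numbers. The 34 not called without the block had a median level of 0.643 CPM, against 1.55 CPM for those called. The fifth and the eighth locus by level were among these 34. Why a locus was not called was not tested.

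Values that the choice did not use were obtained by applying the rule to 2 sets and reading the remaining set. The labels do not name separate cultures, so the remaining set may not be an independent repeat of the others. Loci were chosen and read in this manner for each set in turn. Nearly all loci chosen this way were lower in migrated cells of the set left out, and 49.1% to 64.8% were at least 2-fold lower there. Without set 1 the rule chose 218 loci. Of these, 212 were lower in set 1 and 107 (49.1%) at least 2-fold lower, beside 56.4% and 1.57% of all loci at the level minimum. Without set 2 it chose 179 loci, of which 171 were lower in set 2 and 116 (64.8%) at least 2-fold lower, beside 58.9% and 2.29% of all. Without set 3 it chose 194 loci, of which 186 were lower in set 3 and 102 (52.6%) at least 2-fold lower, beside 57.3% and 1.99% of all. Between 137 and 155 of the loci chosen in each case belong to the 174. Counted as lower are 2 loci with 0 fragments in the migrated library of set 1 and 2 in that of set 2. With 1 library per fraction in the remaining set, no test is possible.

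The fold in the set left out was smaller than in the sets used for choosing, except in set 2. The median was 1.98-fold in set 1 against 2.42-fold in the choosing sets, and 2.06-fold in set 3 against 2.45-fold. In set 2 it was 2.38-fold against 2.35-fold. All loci chosen at 2 CPM or more were lower in the set left out, 72 of 72 in set 1, 55 of 55 in set 2 and 67 of 67 in set 3. At least 2-fold lower were 41, 45 and 39 of them, which is 56.9%, 81.8% and 58.2%, beside 0.567%, 0.861% and 0.584% of all loci at that level. Between 0.5 and 1 CPM, 83 of 89, 63 of 71 and 67 of 72 chosen loci were lower in sets 1, 2 and 3, beside 60.2%, 64.9% and 64.8% of all loci at that level. At least 2-fold lower were 37, 36 and 33 of them, which is 41.6%, 50.7% and 45.8%, beside 12.2%, 16.3% and 16.2% of all. A 2-fold difference in a single set was thus far more frequent among all weak loci than among all loci of 2 CPM or more. The loci chosen by the mirror rule were fewer, at 40, 31 and 37. Of these, 38, 29 and 31 were higher in the set left out.

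**Figure D3:**
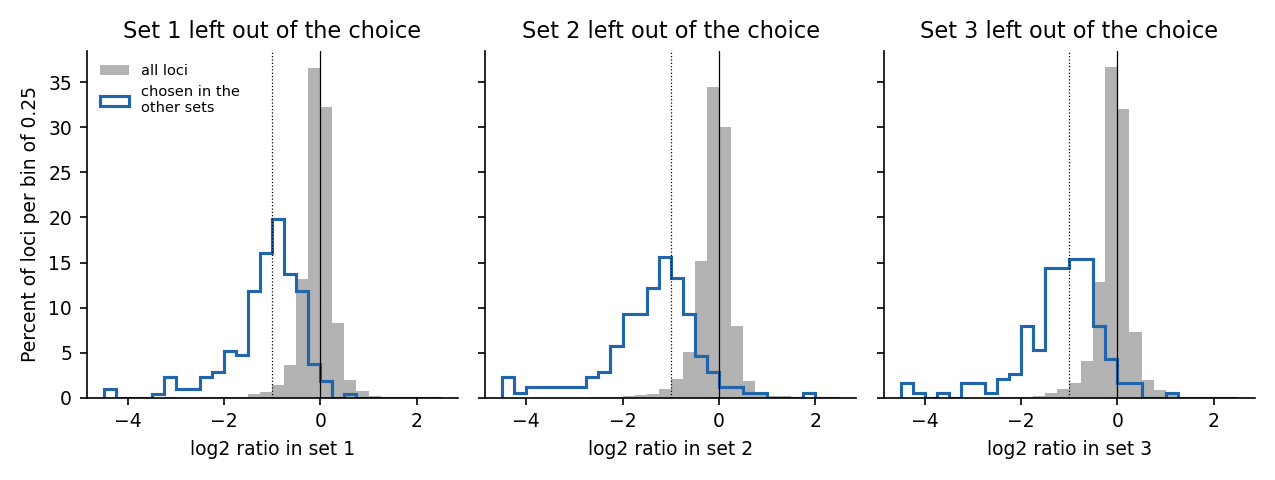
Distribution of the log2 ratio of migrated to non-migrated CPM in 1 replicate set, for all loci at the level minimum (grey) and for loci chosen by the rule in the other sets (blue), as percent of loci per bin, with a dotted line at 2-fold lower. The chosen loci centre at -0.99, -1.25 and -1.04 in sets 1, 2 and 3 and lie almost wholly below 0, while all loci centre near 0. Loci with 0 fragments in a library of that set are not drawn, and values beyond the axis are placed in its last bin.

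The libraries of a fraction spread more at these loci than at the average locus. The median coefficient of variation was 19.5% among non-migrated and 24.5% among migrated libraries, against 7.61% and 7.27% over all loci. Counting alone would give a standard deviation of 14.8% and 24.8% of the mean at these levels. A median of coefficients from 3 libraries each tends to lie below such a value, so they are not like for like. Over all loci of 0.5 to 1 CPM, for example, the non-migrated median was 23.4%, under a counting value of 24.3%. In the class from 0.5 to 1 CPM, which holds 67 of the 174 loci, the non-migrated spread was 22.2% against 23.4% for all loci of that class, and the migrated spread was 32.3% against 23.6%. Counting alone would give 33.4% and 25.5% for these migrated values. In the class of 10 CPM or more it was 15.5% against 6.31%, and among migrated libraries 19.3% against 5.85%, with counting errors of only 4.41% and 6.88%. This class has no upper limit, and counting alone would give 2.96% and 2.89% over all its loci, so levels are not matched. The medians of its 12 members were above those of the class in both fractions. Not every member was, since the sixth by level varied by 2.39% among non-migrated libraries. A wide spread within a fraction is also present in the mirror group, where the medians over all levels were 25.4% and 20.4%.

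No library was the highest of its fraction at most of the loci. The highest non-migrated value came from set 2 in 74 loci (42.5%), from set 3 in 60 (34.5%) and from set 1 in 40 (23.0%). Over all loci these shares were 31.9%, 40.4% and 27.6%. The highest migrated value came from set 3 in 74 (42.5%), from set 1 in 66 (37.9%) and from set 2 in 34 (19.5%). Over all loci they were 37.1%, 33.7% and 29.1%. Relative to the mean of its fraction, the median locus of the group lay at -0.13 on the log2 scale in the migrated library of set 2 and at 0.11 in that of set 3. The non-migrated libraries lay between -0.08 and 0.05. The same medians over all 13321 loci were within -0.02 and 0.01 for every library. Deviations from the fraction mean correlated between same-numbered libraries at 0.366, 0.380 and 0.373 across the 174 loci, which share these libraries. Over all loci these correlations were 0.539, 0.506 and 0.412.

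Relative locus length was read from the table by dividing scaled fragments by FPKM, with the median locus set at 1. Over the whole group length was unremarkable, with a median of 1.06 against 1.00 for all loci and quartiles of 0.631 and 1.62 against 0.620 and 1.57. The 26 higher loci had a median of 0.832. Within the weakly expressed loci, however, the share that met the rule increased with length. Among loci of 0.5 to 2 CPM it was 4.46% in the shortest of 5 equal length classes, 5.85% and 9.06% in the next classes, 10.4% in the fourth and 12.4% in the longest. The median level of these classes was 0.965 to 1.10 CPM and was lowest in the shortest class. Whether level or counting depth bears on the gradient was not tested.

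The gradient in weakly expressed loci was present in each set. The share at least 2-fold lower rose from 4.88% in the shortest to 17.3% in the longest class in set 1, from 8.28% to 22.7% in set 2 and from 11.7% to 18.4% in set 3. In set 2 the fourth class, at 15.3%, was below the middle one, at 17.1%. The difference between the ends was smallest in set 3. With FPKM in place of CPM, the shares that met the rule ran from 3.61% to 10.8%. The mirror rule was met by 3, 3, 3, 2 and 1 of these loci from the shortest to the longest class, too few to show an order. At 2 CPM or more the rule was met by 0.547% in the shortest and 0.686% in the longest class, with 0.369% to 0.547% between them and no steady order, on 9 to 17 loci per class. The median log2 ratio of all loci fell with length at both levels. At 2 CPM or more it was 0.03, -0.02, -0.03, -0.05 and -0.10 from the shortest to the longest class, and at 0.5 to 2 CPM it was -0.17, -0.25, -0.28, -0.26 and -0.32, where the fourth class was out of order.

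**Figure D4:**
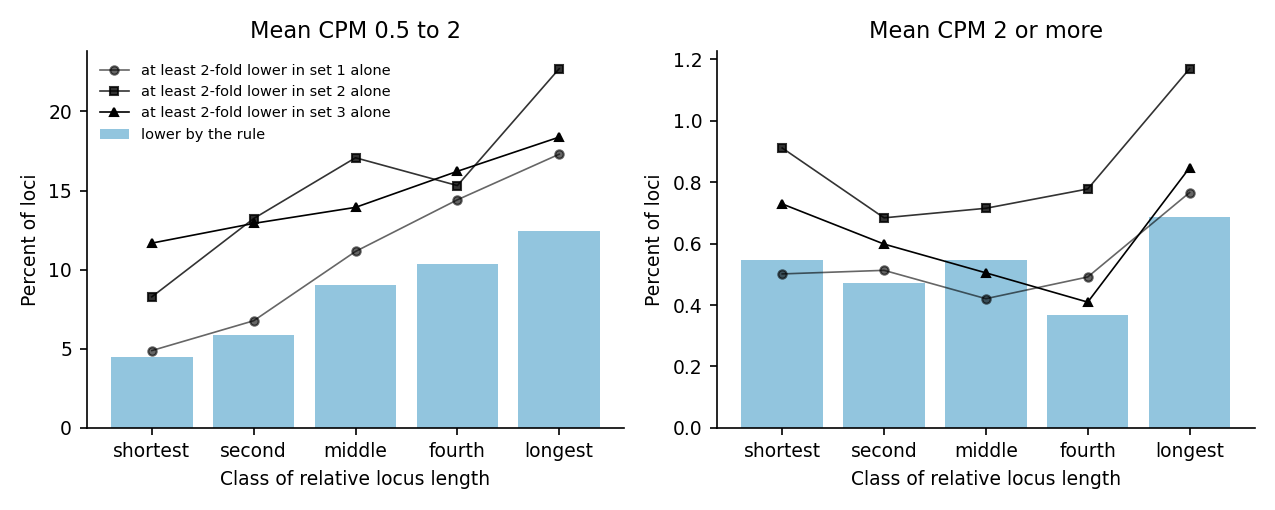
Percent of loci in each of 5 classes of relative length that met the rule (bars), and percent at least 2-fold lower in each replicate set alone (lines), for loci of 0.5 to 2 mean CPM (left) and of 2 mean CPM or more (right, on a smaller scale). The bars on the left rise from 4.46% to 12.4%, and those on the right show no steady order.

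The extremes of length show what the ratio means for single loci. The longest of the group, at 19.3 times the median, was at 1.82, 1.46 and 1.81 CPM in non-migrated and at 0.779, 0.432 and 0.771 CPM in migrated libraries. Per length this is 0.0248 FPKM and 0.0103 FPKM. The next longest, at 13.0 times the median, was at 9.74, 8.74 and 7.68 CPM against 2.57, 2.12 and 2.74 CPM. The shortest, at 0.0827 times the median, was at 0.956, 1.27 and 1.04 CPM against 0.779, 0.561 and 0.257 CPM, or 3.69 and 1.94 FPKM. Relative lengths over 4 were found in 4 of the 174 loci (2.30%) and in 1.46% of all loci. Those 4 were also over 5, a length reached by 0.593% of all. Relative lengths under 0.25 were found in 6 of the 174 (3.45%) and in 4.41% of all. The length estimate itself was nearly the same in both fractions. The median log2 ratio of migrated to non-migrated length was -0.01 in the group and 0.00221 over all loci, and none of the 174 loci differed by more than 1.5-fold in length.

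The ID numbers of the loci run from 1 to 26008, and the way they were assigned is not known here, so neighbouring numbers are not taken to be neighbouring genes. The 174 loci were mostly scattered singly over these numbers. Only 10 of them (5.75%) stood next to another of the group, in 5 pairs of consecutive numbers, and no run was longer than 2. Of the other 13147 loci at the level minimum, 1.47% had a number next to 1 of the 174. Within a distance of 5 numbers the shares were 16.7% and 6.88%. Without the third non-migrated library, the share of loci in consecutive pairs was 2.55%.

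The clearest pair held the loci at level ranks 31 and 42. The first was at 9.05, 8.10 and 5.38 CPM in non-migrated and at 1.79, 1.25 and 2.10 CPM in migrated libraries, or 4.38-fold. Its neighbour was at 5.53, 5.56 and 4.33 CPM against 1.48, 1.29 and 1.46 CPM, or 3.65-fold. Set 3 was the lowest of the non-migrated values in both. In the other 4 pairs folds ran from 2.10 to 2.87. Loci next in number to 1 of the 174 without belonging to it had a median log2 ratio of -0.11, and 67.9% of these 193 were lower in migrated cells. Over all loci outside the group these values were -0.04 and 58.2%. At distances of 2 and 3 numbers the median was -0.10 and -0.11, and from 4 to 10 numbers it lay between -0.10 and -0.03 in no steady order.

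On a wider scale the share of the 174 varied along the numbers. Over 26 windows of 1000 numbers it ran from 0.411% to 3.24%, with a median of 1.20%. The highest share was at numbers 12001 to 13000, with 18 of 555 loci. Within that window, 13 of the 18 lay at 12501 to 13000, where they made up 5.18% of 251 loci. Those 13 were between 0.551 and 4.65 CPM with a median of 2.23-fold. The other loci at 12501 to 13000 were also lower, with a median log2 ratio of -0.22 overall and of -0.22, -0.26 and -0.18 in sets 1, 2 and 3. The other loci at 12001 to 12500 had a median of -0.00371. The next window, 13001 to 14000, held XLOC_013485 and 6 more of the group, a share of 1.23%. Its other loci had a median of -0.21, the lowest of all windows. The shift there was -0.20, -0.22 and -0.18 in the 3 sets, against -0.03, -0.05 and -0.04 over all numbers. These windows were chosen after the values had been seen.

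**Figure D5:**
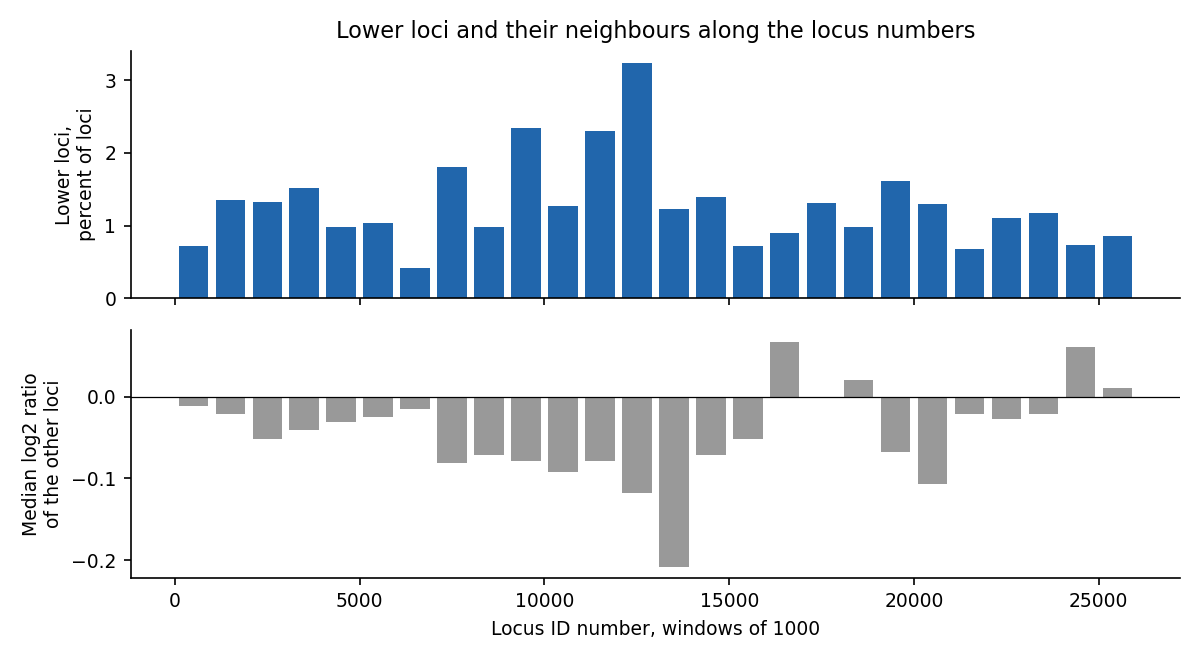
Share of the 174 lower loci among loci at the level minimum (top) and median log2 ratio of the remaining loci (bottom), in windows of 1000 ID numbers. The top panel peaks at 3.24% for numbers 12001 to 13000, and the bottom panel reaches its lowest value in the window after it.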

How the data were processed

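Per the submitters' processing notes, the tools were TopHat2, Cuffdiff, Cufflinks 2.2.1 and CASAVA 1.8.2, and the build was hg19. Neither annotation nor strand setting is known here, so overlapping and near-identical genes are uncertain. Per the file headers, the deposited estimated counts are fragments per locus and library before scaling. The deposited scaled fragments are a signal that Cuffdiff made comparable between libraries, and the deposited FPKM values are those fragments relative to length and library size. The table numbers libraries within a fraction from 0, which was read as the order of the labels, an assumption. Same-numbered libraries deviated together (correlations of 0.412 to 0.539 across 13321 loci, of log2 CPM with 0.5 added), and the series describes paired sets, so equal numbers were read as pairs.

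CPM was computed from the column totals. After rounding, edgeR 4.0.16 (R 4.3.3) tested the counts (TMM scaling, filterByExpr, robust quasi-likelihood F-test, two-sided, Benjamini-Hochberg adjustment over 13551 loci, no block). DESeq2 1.42.0 was an alternative. The edgeR fit and the rule were also run on simulated counts, but the outcome is not given here and backs no result above. IDs were printed for the locus with the highest mean CPM and for that with the largest ratio of lowest non-migrated to highest migrated CPM. The 174 loci and all choices were made with earlier results of these data known. The labels do not name separate cultures, so the spread between libraries may be technical. The deposited lists of gene symbols hold no values and were not used here.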

Additional observations from a re-analysis of the deposited data

How the results depend on the processing

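Against 174 lower and 26 higher loci, TMM scaling gave 152 and 32, DESeq2 size factors 153 and 32, and FPKM 132 and 39, so 87.0% of the loci were lower by CPM, 82.6%, 82.7% and 77.2% otherwise. A minimum of 1 mean CPM gave 107 lower loci. A fold of 1.5 gave 515 and 159, and a fold of 3 gave 43 and 1. With the replicate block, that is at least a 2-fold difference in every set, 76 and 10 remained by construction of a stricter rule. Leaving out 1 library gave 157 to 219 lower loci, of which 133 to 157 were among the 174, and 26 to 51 higher ones, with 51 without the first non-migrated library. Without failed loci the numbers were 174 and 26.

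The number of the 174 loci called lower was 140 by edgeR without a block, 173 with the replicate block, 116 by DESeq2 and 138 to 147 with other scalings or no filter. Leaving out 1 library gave 85 to 114, with fewer samples in the fit, and the lowest was without the second migrated library. Over all loci tested, 866 of 13551 were lower without a block, 2690 of 13551 with it and 842 of 13362 by DESeq2. Other scalings gave 847 and 1226 of 13551, and no filter gave 881 of 18186. On leaving out 1 library, 352 to 599 of all loci were lower, with 352 of 13737 without the second migrated library. The rule used the same counts, so nothing is read from these numbers.

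Leaving out 1 library moved the median level from 1.34 CPM to 1.29 to 1.47 CPM, and the median relative length from 1.06 to 1.04 to 1.10, which was also 1.10 at a minimum of 1 mean CPM. The share of loci next in number to another of the group was 2.55% to 7.31% on leaving out 1 library and 16.7% within 5 numbers, a wider definition. On leaving out 1 library of the same fraction, the spread was 14.0% to 17.3% among non-migrated and 19.1% to 22.0% among migrated libraries. These values rest on 2 libraries, and a median coefficient from 2 values tends to be smaller than from 3. On leaving out 1 library of the other fraction, it was 19.6% to 21.4% among non-migrated and 23.0% to 23.5% among migrated libraries. At a minimum of 1 mean CPM it was 22.8% among migrated libraries. Where a cause is not given above, the cause was not tested. The highest share in a window was 5.18% with windows of 500 numbers and 2.22% with windows of 2000, an alternative chosen after seeing the data. XLOC_013485, XLOC_005671 and the other loci among the 10 highest kept their direction in all 99 values under other scalings, FPKM and the omission of 1 library. In 13 of these values, at 5 loci, the difference was under 2-fold. These were the loci at level ranks 2, 5, 8, 9 and 10, and only rank 2 was under 2-fold by another scaling or FPKM. On leaving out 1 library, the log2 ratios nearest 0 were -0.83 at rank 5 (without the first non-migrated library), -0.82 at rank 8 (without the second non-migrated library), -0.89 at rank 9 (without the third migrated library) and -0.98 at rank 10 (without the second migrated library). Weakly expressed loci rest on few fragments, and depth limits the precision of their folds.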
